A study of Mus musculus with 12 samples.

Results

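Transcripts were compared between the colon of male mice that had received DAPP during DSS and the colon of untreated control mice, with 3 samples in each group. DSS is dextran sulfate sodium, which injures the lining of the colon when mice take it up and is a common way to induce colitis. The labels do not spell out DAPP, while the series title names apple peel polyphenols, and the deposited columns of this group carry the number 400 with no unit. The comparison uses 6 of the 12 arrays of the series, chosen by their treatment labels. The other arrays are 3 from mice given DSS alone, which are set beside the results below, and 3 from mice given DAPP before DSS, which enter only the shared estimate of the spread. All mice are labelled male and 7 to 8 weeks of age, and the control label names no agent. The sources used here give no strain, vehicle, dose of DSS or days of treatment. Each sample is labelled a biological replicate.

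RNA was measured on an Illumina bead array with 45281 probes. Of these, 20556 had a detection p under 0.05 on at least 3 of the 6 arrays, and 17434 of the kept probes carried 1 gene symbol. They stand for 11156 genes, each represented by the brightest of its kept probes. Levels are normalised log2 intensities, so that a difference of 1 is a change of 2-fold. Errors of a difference are standard errors from limma's linear model. Calls were made at 0.05 after Benjamini-Hochberg adjustment over all 20556 kept probes.

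DSS breaks the epithelial barrier, so that gut bacteria reach the tissue below. Neutrophils and monocytes then enter the mucosa, drawn by chemokines, and release cytokines, proteases and antibacterial proteins. The epithelium answers with defence proteins of its own, its absorptive and detoxifying functions are reduced, and stromal cells rebuild the matrix. Polyphenols are plant compounds studied for antioxidant activity, and the transcription factor NRF2, encoded by Nfe2l2, is a main switch of antioxidant genes.

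The control and DAPP during DSS arrays stood apart. Over the genes tested, arrays of the same group correlated at 0.978 to 0.983 in control and 0.971 to 0.978 in DAPP during DSS, and arrays of different groups at 0.923 to 0.931. Raw signals averaged 479 to 507 on the control arrays and 701 to 708 on the DAPP during DSS arrays, and the number of detected probes was 18161 to 19292 and 21268 to 21444, neither overlapping. The DSS arrays averaged 433 to 487 and those of DAPP before DSS 601 to 728, so the arrays of both DAPP groups were brighter than those of control and DSS. The part of this difference in the results was not tested, and the arrays were brought to common quantiles before the fit. When the arrays were given equal medians in place of common quantiles, the median difference of all genes moved from -0.04 to 0.40, and the share of calls that were higher moved from 60.1% to 90.2%. Directions below are relative to common quantiles, and small differences depend on that choice. All 337 genes called lower kept their negative sign under equal medians, where 153 of them were still called, and all 508 genes called higher were still called.

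In DAPP during DSS, 508 genes rose and 337 fell against control, which is 4.55% and 3.02% of the genes tested and 7.57% together. Of the 845 changed genes, 715 differed by more than 2-fold, and of the 245 that differed by more than 4-fold, 194 were higher and 51 lower. All 3 DAPP during DSS arrays lay above all 3 control arrays in 19.1% of the genes tested and below them in 23.1%. In 113 of the genes that rose, no control array detected the transcript, and in 28 of those that fell, no DAPP during DSS array did. Such genes, here and in the lists below, passed the detection filter only through the group where they were brighter. The filter thus largely set their direction. The count rests on the spread that all 12 arrays share. It was 2221 in a fit of the 6 arrays alone, which called 843 of the 845 genes. Without replicate 1 of DAPP before DSS it was 1651. That array correlated with the other arrays at 0.821 to 0.910, while every other array reached 0.978 or more with at least 1 array. The calls below, and the tests that genes did not pass, thus rest on a spread that includes it. Leaving out 1 of the 6 compared arrays lowered the count to between 392 and 522. Of the 845 genes, 357 were called whichever of the 6 was left out.

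**Figure D1:**
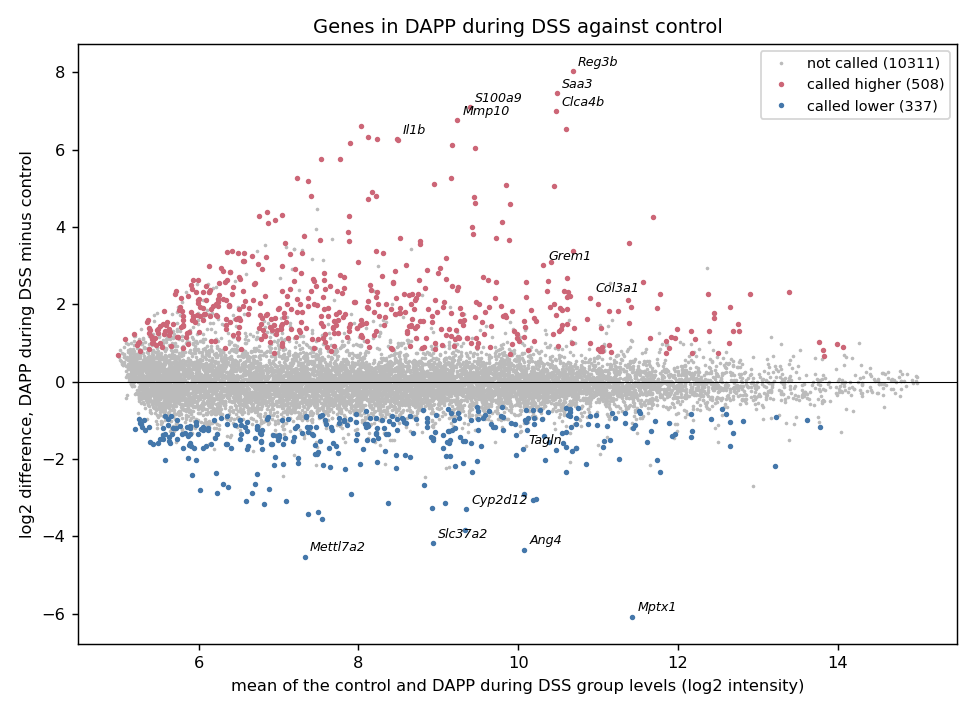
Each point is 1 of the 11156 genes, with the mean of both group levels on the x axis and the log2 difference of DAPP during DSS minus control on the y axis. Red points are the 508 genes called higher and blue points the 337 called lower, and the largest differences are upward, to 8.02 for Reg3b.

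The 12 largest rises were Reg3b, Saa3, S100a9, Clca4b, Mmp10, Reg3g, S100a8, Wfdc12, Il1b, Il11, Retnlg and Cemip. Reg3b, a lectin that gut epithelium secretes against bacteria, lay at 7.05, 5.44 and 7.53 on the control arrays and at 14.40, 14.77 and 14.91 on the DAPP during DSS arrays. The difference was 8.02 ± 0.52 (adjusted p = 4.25e-06), and the upper levels lay close to 15.09, the highest level of any probe. The other kept Reg3b probe was called with a difference of 5.19. Its relative Reg3g was not detected in control and lay at 10.49, 11.87 and 11.63 in DAPP during DSS, at least 55.9-fold higher (adjusted p = 0.000198). All 3 arrays of DAPP during DSS were thus far above all 3 control arrays for both lectins. Clca4b, a member of a family that modulates calcium-activated chloride conductance, rose from 7.39, 5.75 and 7.79 to 14.09, 14.02 and 13.81 (7.00 ± 0.42, adjusted p = 2.66e-06), and its other kept probe was called with a difference of 2.80. Cemip, which takes part in the breakdown of hyaluronan, had no detected signal in control and rose at least 43.4-fold (10.76 to 11.36 in DAPP during DSS, adjusted p = 1.99e-06). Wfdc12, a secreted protein with a WAP domain, likewise had none in control and rose at least 54.4-fold (adjusted p = 3.38e-06).

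The 12 largest falls were Mptx1, Mettl7a2, Ang4, Slc37a2, 2310079G19Rik, Odf3b, Bex4, Cyp2f2, Cyp2d12, Tgm3, Capsl and Inmt. Mptx1, a mucosal pentraxin secreted in the gut, lay near the upper end of the scale in the control colon, at 14.70, 14.57 and 14.12. It lay at 6.70, 7.42 and 11.05 in DAPP during DSS, so that the groups did not overlap but replicate 3 kept a much higher level than the other two (difference -6.07 ± 0.85, adjusted p = 0.00131). Slc37a2, a sugar-phosphate transporter, fell from 10.54, 11.04 and 11.48 to 6.58, 6.68 and 7.26 (-4.18 ± 0.56, adjusted p = 0.000945). Mettl7a2, a putative methyltransferase, fell from 9.37, 9.57 and 9.83 to 5.27, 4.62 and 5.31 (-4.52 ± 0.28, adjusted p = 2.92e-06), where 2 of the 3 DAPP during DSS arrays detected it. Ang4, an antimicrobial ribonuclease of the crypt, lay at 14.09, 13.49 and 9.16 in control, so that control replicate 3 was already close to the highest DAPP during DSS level, 8.93. Its difference of -4.34 ± 0.99 (adjusted p = 0.0227) was -5.88 without that control array (adjusted p = 0.000213). The call was lost without control replicate 1 or 2 or without DAPP during DSS replicate 2 or 3 (adjusted p up to 0.112). Tgm3, a transglutaminase of differentiated epithelium, fell by 3.27 ± 0.59 on the log2 scale (adjusted p = 0.00627). Inmt, which methylates tryptamine and related amines, fell from 10.48 to 10.78 in control to 8.77, 6.92 and 6.86 (adjusted p = 0.0307). Its call was lost when control replicate 1, 2 or 3 or DAPP during DSS replicate 2 or 3 was left out (adjusted p up to 0.134).

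**Figure D2:**
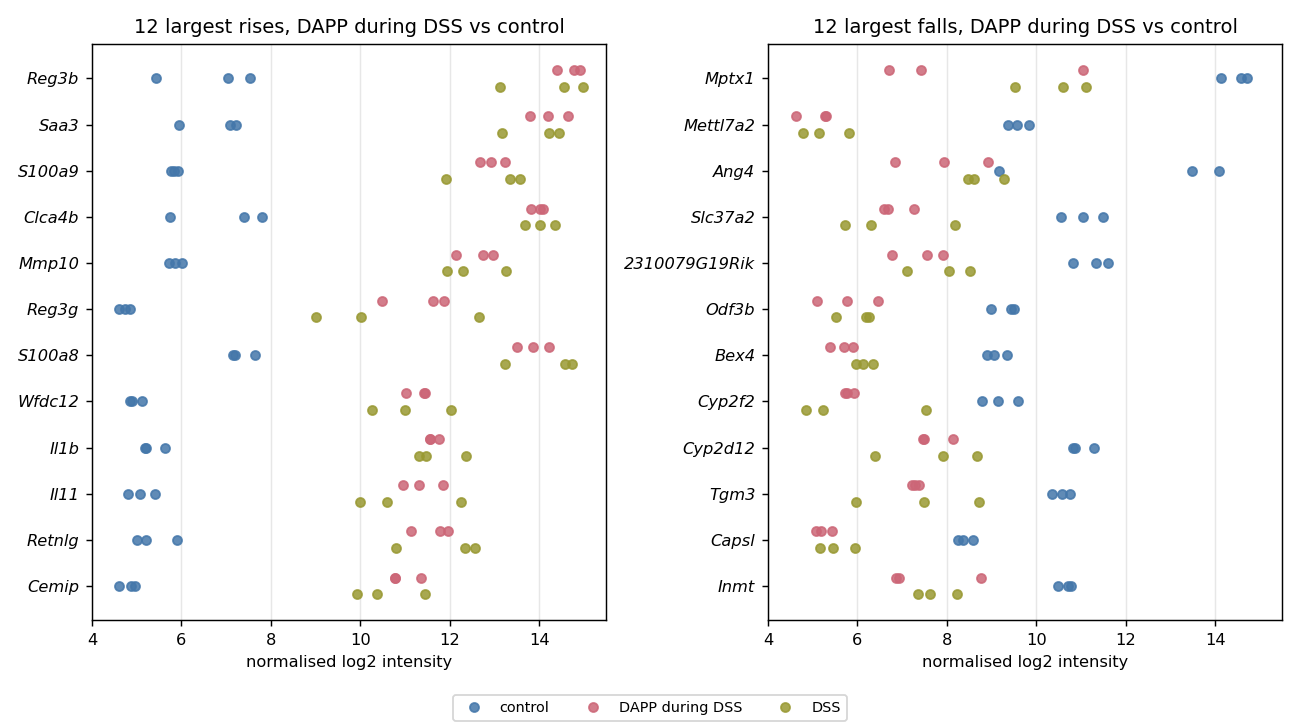
Points are single arrays of control (blue), DAPP during DSS (red) and DSS alone (olive) for the 12 largest rises and the 12 largest falls, on a normalised log2 intensity axis. Red points lie far from the blue ones for every gene shown except Ang4, whose control points spread from 9.16 to 14.09.

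Transcripts of neutrophils, the first white cells to enter inflamed tissue, rose in most of the markers tested. In bulk tissue, more cells of a type and more RNA per cell cannot be told apart. Of 24 neutrophil markers listed, 15 were tested, and Ly6g, Mpo and Elane were among those that were not. Of the 15 tested, 13 rose and 0 fell. The median difference was 3.34 (2.71 with undetected members at their bounds) beside -0.04 over all genes. S100a9, which with S100a8 forms calprotectin, lay at 5.84, 5.77 and 5.93 in control and at 12.93, 13.23 and 12.67 in DAPP during DSS, a 137-fold difference (adjusted p = 2.66e-06). Its partner S100a8 was 92.7-fold higher, with 7.14 to 7.65 in control and 13.50 to 14.23 in DAPP during DSS. The levels within each group were close together and the groups were far apart. Lcn2, which withholds iron from bacteria by binding their siderophores, rose from 6.14, 6.28 and 5.92 to 12.63, 12.50 and 11.58 (6.13 ± 0.42, adjusted p = 6.41e-06). Retnlg, a resistin-like protein of mouse neutrophils, rose 76.1-fold, and Ltf, the iron-binding lactoferrin of neutrophil granules, at least 6.54-fold. Without background correction the list median was 1.59, since that setting compresses differences of dim genes, and 11 members were called.

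Macrophage and monocyte markers rose in 14 of 17 genes tested, with 0 lower and a median of 1.87. Chil3, a chitinase-like protein of activated mouse macrophages, was not detected in control and lay at 10.47, 11.45 and 10.06 in DAPP during DSS, at least 35.1-fold higher (adjusted p = 4.52e-05). Fcgr4, an activating receptor for IgG, rose by 3.82 ± 0.43 (adjusted p = 0.00026). C1qb, a chain of the first complement component made by tissue macrophages, rose from 9.61, 10.02 and 9.41 to 11.58, 11.56 and 11.50 (1.87 ± 0.25, adjusted p = 0.000854). Cd14, the co-receptor for bacterial lipopolysaccharide, rose by 1.56 ± 0.23 (adjusted p = 0.00192).

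Lymphocyte and mast cell lists moved less. Of 11 T and NK cell markers, 4 rose (median 1.26), and 2 without control replicate 1 or DAPP during DSS replicate 2. Cd3e, a subunit of the T cell receptor complex, rose by 2.14 ± 0.37 from a level that 1 of 3 control arrays detected (adjusted p = 0.0049), and Icos, a costimulatory receptor, by 1.95 ± 0.28 (adjusted p = 0.00178). The other kept probes of Cd3e and Icos differed by 0.77 and 1.18 and were not called. Of 6 B and plasma cell markers 0 were called in either direction by limma, with a median of -0.34, and 2 were called lower in the 6 arrays alone. Of 6 mast cell and eosinophil markers 2 rose, and 1 without control replicate 1 or DAPP during DSS replicate 3. Mcpt1, a protease of mucosal mast cells, was not detected in control and lay at 7.34, 7.60 and 6.99 in DAPP during DSS, at least 3.45-fold higher (adjusted p = 0.00291). The DSS arrays lay lower, at 6.94, 6.80 and 5.94, but the difference of 0.75 from DSS had an interval of -0.17 to 1.67.

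Of 24 inflammatory cytokines listed, 13 were tested, and Il17a, Il22, Il23a and Ifng were among those that were not. Of the 13 tested, 7 rose and 0 fell, with a median of 1.71. Il11, Il1a, Osm and Il6 were detected on no control array and passed the filter through the DAPP during DSS arrays alone. Il1b, which encodes the fever-inducing cytokine interleukin-1 beta, lay at 5.18, 5.22 and 5.63 in control, where 1 array detected it, and at 11.56, 11.75 and 11.55 in DAPP during DSS (6.27 ± 0.38, adjusted p = 2.66e-06). Il11, a cytokine of the interleukin-6 family made by stromal cells, had no detected signal in control and rose at least 57.2-fold (adjusted p = 3.89e-05). The 3 DAPP during DSS arrays gave nearly the same Il1b level. Il1a was at least 3.31-fold higher (adjusted p = 0.000506), and Il33, an alarmin of barrier and stromal cells, rose by 2.65 ± 0.46 (adjusted p = 0.00497). Il6, a driver of the acute phase response, was not detected in control and lay at 7.14, 8.18 and 7.54, at least 4.28-fold higher (adjusted p = 0.0131). Its call was lost without control replicate 1 or DAPP during DSS replicate 2 (adjusted p = 0.0557 and 0.0705) and without background correction (adjusted p = 0.0946). Tnf, the target of antibody drugs in bowel disease, lay at 5.19, 4.94 and 6.01 in control and at 6.64, 7.58 and 7.05 in DAPP during DSS (1.71 ± 0.38, adjusted p = 0.0191). The Tnf call was lost without control replicate 1 or 2 or DAPP during DSS replicate 2 or 3 (adjusted p 0.0632 to 0.102), and without background correction (adjusted p = 0.0688). The other kept Tnf probe differed by 2.33 and was called. Osm, the cytokine oncostatin M, was at least 6.07-fold higher by its brighter probe, while its other kept probe differed by -0.04, and its call was also lost without background correction (adjusted p = 0.0625).

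Leukocyte chemokines rose in 14 of 23 genes tested, with 0 lower and a median of 2.33. Cxcl1, which attracts neutrophils, rose from 7.37, 6.09 and 6.10 in control to 11.79 ± 0.18 in DAPP during DSS (SD, n = 3), a difference of 5.27 ± 0.54 (adjusted p = 0.000164). Ccl8, a monocyte attractant, rose from 7.76, 7.87 and 6.27 to 12.32, 12.67 and 12.17 (5.08 ± 0.49, adjusted p = 0.000107). Neither gene overlapped between the groups. Ccl2, another monocyte attractant, had no detected signal in control and rose at least 11.5-fold (8.89 to 9.12 in DAPP during DSS), and Ccl3 was at least 5.97-fold higher (adjusted p = 7.42e-05).

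Cytokine and chemokine genes are classical targets of NF-kappaB, whose binding sequence resembles GGG and TTTCC with any 2 bases between. That pattern, read on both strands from 250 bases before to 50 bases after the gene start, stood in 13 of 376 genes called higher that had a promoter sequence (3.46%), in 6 of 269 called lower (2.23%) and in 150 of the 8992 tested genes with one (1.67%). None of the 12 largest rises held it. The stretches below surround the pattern in the 5 named changed genes that did. They are RefSeq promoter sequence of the plus strand, build GRCm38.p6, cut at the gene start where that came first, with the pattern on either strand in capitals. Cxcl1 and Madcam1 held it more than once in the window shown.
Cxcl1, chr5:90891121-90891200: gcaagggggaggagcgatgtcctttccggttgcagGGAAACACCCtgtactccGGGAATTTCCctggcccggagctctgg
Il6, chr5:30013035-30013113: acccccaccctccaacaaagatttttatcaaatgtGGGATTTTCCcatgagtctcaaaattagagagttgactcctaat
Serpina3n, chr12:104406502-104406581: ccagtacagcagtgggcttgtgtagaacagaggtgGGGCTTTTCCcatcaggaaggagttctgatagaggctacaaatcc
Ubd, chr17:37193842-37193891: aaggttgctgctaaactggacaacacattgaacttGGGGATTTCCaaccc
Madcam1, chr10:79664441-79664520: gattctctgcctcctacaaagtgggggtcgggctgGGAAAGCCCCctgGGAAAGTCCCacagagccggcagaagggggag
The first copy shown began 89 bases before the start of Cxcl1, 44 before that of Il6, 171 before that of Serpina3n, 15 before that of Ubd and 83 before that of Madcam1. A second pattern, GAAA and GAAA with any 2 bases between, read the same way and apart from the first, which resembles the element of interferon-responsive genes, stood in 5.05% of the genes called higher, 2.97% of those called lower and 3.12% of all with a promoter. A match is a description of the letters and no evidence of binding.

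Genes of the NF-kappaB pathway itself rose in 4 of 15 tested (median 0.43), and in 1 or 2 without any 1 of the 6 arrays. Tnfaip2, a gene first found as induced by TNF, rose by 2.32 ± 0.33 (adjusted p = 0.00155). The other three, Nfkbiz, Nfkbie and Bcl3, rose by 1.26 to 1.38 and were each lost when some of the 6 arrays were left out, control replicate 1 and DAPP during DSS replicate 3 among them for all (adjusted p up to 0.161).

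Acute phase and complement genes, best known from the liver, rose in 11 of 16 tested, with 0 lower and a median of 1.84. Saa3, a serum amyloid A made outside the liver in mice, rose from 7.22, 5.95 and 7.10 to 14.63, 14.20 and 13.79 (7.45 ± 0.41, adjusted p = 1.99e-06). Hp, the haemoglobin-binding haptoglobin, rose from 6.82, 6.54 and 5.84 to 11.50 ± 0.51 (SD, n = 3), with 10.98 the lowest array (5.10 ± 0.32, adjusted p = 2.92e-06). Serpina3n, a protease inhibitor whose promoter stretch is printed above, rose from 9.40, 9.68 and 9.62 to 14.33, 13.85 and 13.28 (4.25 ± 0.29, adjusted p = 5.7e-06). For all of these the DAPP during DSS arrays lay more than 3 log2 units above every control array. Lrg1, a leucine-rich glycoprotein of inflamed tissue, rose by 4.59 ± 0.40 (adjusted p = 5.41e-05).

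Epithelial defence genes split by direction, with 11 higher and 2 lower of 22 tested (median 3.02, or 2.82 with undetected members at their bounds). Of the 11, Lcn2 and Ltf are also counted among the neutrophil rises above. Duoxa2 is counted again among the genes of reactive oxygen and nitric oxide below. The 2 that fell, Mptx1 and Ang4, are described above. Wfdc18, a WAP domain protein, rose from 8.34, 8.37 and 7.46 to 11.97, 11.88 and 11.28 (3.66 ± 0.34, adjusted p = 8.18e-05). Duoxa2, which matures the hydrogen peroxide-producing oxidase DUOX2, rose from 9.19, 8.82 and 8.57 to 11.85, 12.18 and 11.86 (3.10 ± 0.36, adjusted p = 0.000364). Retnlb, a goblet cell protein with antibacterial activity, lay at 13.80, 14.04 and 13.65 in DAPP during DSS and at 13.76, 12.03 and 6.88 in control. Control replicate 3 thus stood apart for Retnlb as it did for Ang4, and the Retnlb difference of 2.94 ± 1.28 did not pass the test (adjusted p = 0.226).

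Interferon-responsive genes showed a smaller shift. Of 26 tested, 5 rose and 0 fell, with a median of 1.02. Ubd, a ubiquitin-like modifier, rose from 7.32, 7.27 and 7.65 to 9.49, 10.77 and 10.64 (2.89 ± 0.46, adjusted p = 0.00278). Ifi47, an interferon-inducible GTPase, rose by 2.54 ± 0.49 (adjusted p = 0.00846). In both genes replicate 1 of DAPP during DSS was the lowest of its group, and so was its list mean, at 8.79 beside 9.53 and 9.48 (8.15 to 8.41 in control). Without that replicate 7 members were called, without DAPP during DSS replicate 2 or control replicate 2 only 2, without DAPP during DSS replicate 3 or control replicate 3 only 3, and without DAPP before DSS replicate 1 as many as 13. MHC class II genes, which present antigen to T cells, had a median of 0.96, and 1 of 10 was called, H2-DMb1 (adjusted p = 0.0449). That call was lost without any 1 of the 6 arrays except DAPP during DSS replicate 1 (adjusted p up to 0.179) and without background correction (adjusted p = 0.0774). Equal medians called 4 members higher and the 6 arrays alone 5.

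**Figure D3:**
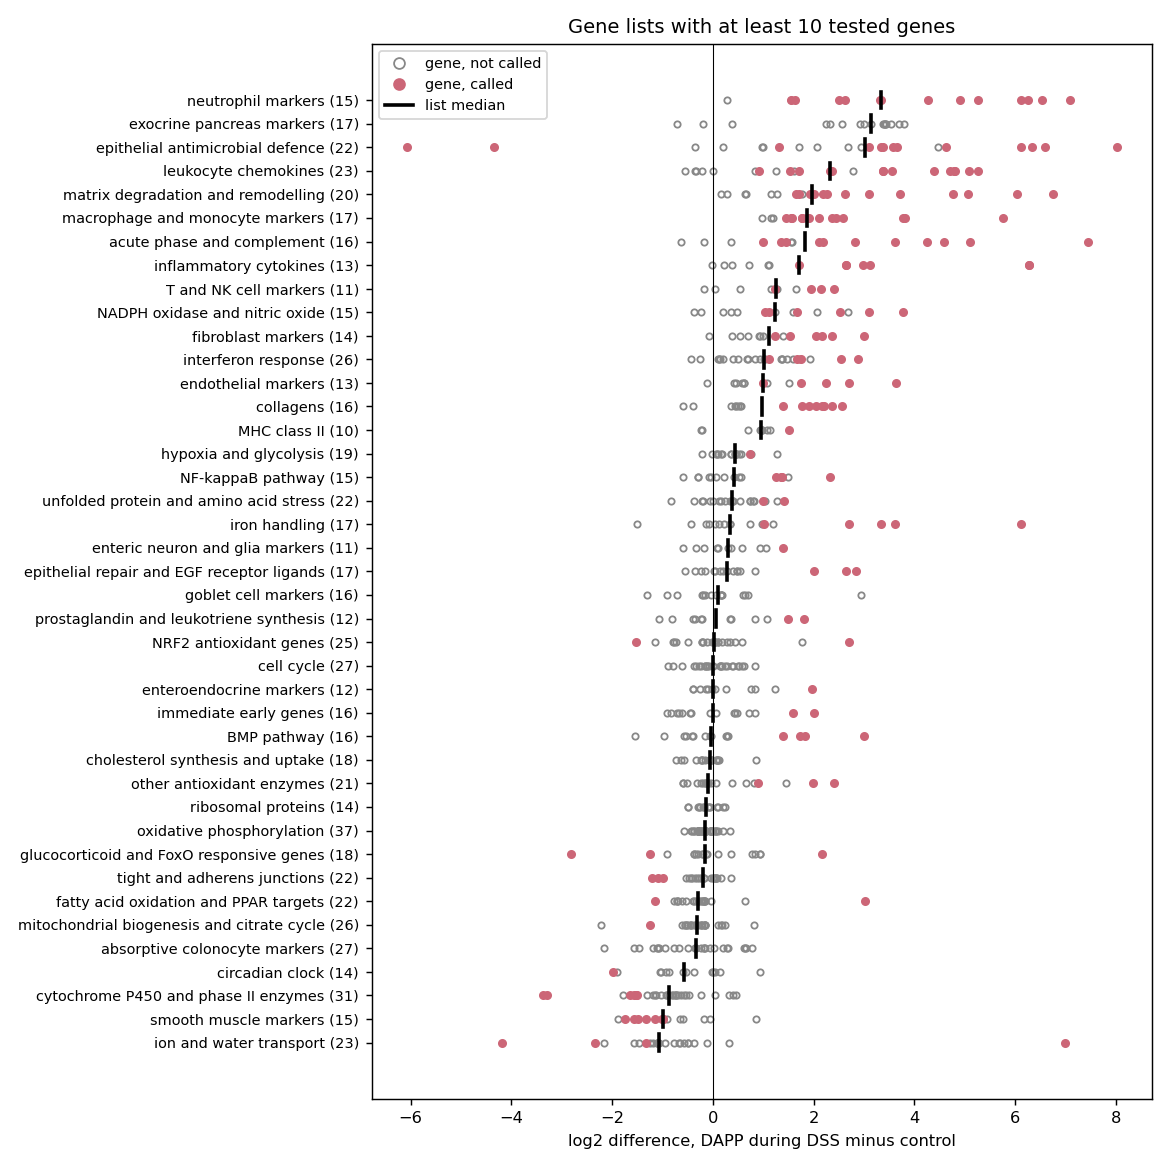
Each point is a gene of a list, at its log2 difference of DAPP during DSS minus control, with called genes filled, the list median as a black bar and the number of tested genes in brackets. Neutrophil, defence, chemokine and matrix lists lie to the right, and ion transport, smooth muscle and detoxification lists to the left, while the 17 pancreas genes reach a median of 3.14 with 0 calls.

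Matrix-degrading and remodelling genes rose in 13 of 20 tested and fell in 0, with a median of 1.97. Mmp10, a stromelysin, lay at 5.85, 5.72 and 6.02 in control and at 12.97, 12.73 and 12.14 in DAPP during DSS, a 108-fold difference (adjusted p = 8.71e-07). Mmp3, another stromelysin, rose from 6.92, 6.13 and 6.29 to 12.32, 12.85 and 12.28 (6.04 ± 0.42, adjusted p = 8.17e-06). Mmp13, a collagenase, rose by 5.06 ± 0.43 (adjusted p = 4.52e-05), while its other 2 kept probes differed by 0.56 and 5.06, the first not called. Their inhibitor Timp1 rose along with them, from 6.63, 7.72 and 6.85 to 11.61, 11.98 and 11.90 (4.76 ± 0.35, adjusted p = 1.16e-05). Plaur, the receptor of the plasminogen activator urokinase, rose 4.04-fold (adjusted p = 0.00673). Without background correction the log2 differences of Mmp10 and Plaur were 5.18 and 1.08, beside 6.75 and 2.01 with it.

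Collagens rose in 8 of 16 genes tested and fell in 0, with a median of 0.97. Col3a1, a fibrillar collagen of the interstitial matrix, lay at 9.82, 9.85 and 9.77 in control and at 11.80, 12.22 and 11.92 in DAPP during DSS (2.17 ± 0.23, adjusted p = 0.000219). The other kept Col3a1 probe differed by 0.93 and was not called. The DSS arrays lay between, at 11.55, 10.76 and 10.98. Col1a2, a chain of type I collagen, rose from 7.88, 7.98 and 8.27 to 10.28, 10.05 and 9.94 (2.05 ± 0.27, adjusted p = 0.000914), with the DSS arrays again in between at 9.34, 8.87 and 9.57. Col18a1 and Col4a1, of the basement membrane, rose by 2.57 ± 0.27 and 1.91 ± 0.26. Fibroblast markers rose in 6 of 14 (median 1.12). Grem1, a secreted BMP antagonist of the crypt-supporting stroma, rose from 8.76, 8.89 and 8.78 to 12.19, 11.90 and 11.37 (3.01 ± 0.39, adjusted p = 0.000722).

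Endothelial markers rose in 5 of 13 tested, with a median of 1.01 (0.62 with undetected members at their bounds). The other 8, Pecam1, Cdh5 and Vwf among them, were not called. Of those called, Selp, Vcam1, Icam1 and Madcam1, encode adhesion molecules that let white cells stop on the vessel wall. Vcam1 rose from 8.03, 8.04 and 8.57 to 11.25, 10.95 and 10.54 (2.70 ± 0.25, adjusted p = 8.45e-05). Icam1 rose by 2.26 ± 0.25 (adjusted p = 0.000279), and Selp, which encodes P-selectin, from 6.23, 6.10 and 5.84 to 9.81, 9.78 and 9.50 (3.64 ± 0.63, adjusted p = 0.00497). Madcam1, the gut-specific ligand of the lymphocyte integrin alpha4beta7, had no detected signal in control and rose at least 2.67-fold (adjusted p = 0.00596).

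Smooth muscle was the cell type list with the most falls, 8 of 15 tested with 0 higher and a median of -0.99. Tagln, an actin-binding protein of contractile cells, lay at 10.92, 11.11 and 10.75 in control and at 9.45, 9.18 and 8.93 in DAPP during DSS (-1.74 ± 0.23, adjusted p = 0.000797). Des, the intermediate filament desmin, fell from 13.41, 13.53 and 13.09 to 12.14, 12.15 and 11.79 (-1.32 ± 0.24, adjusted p = 0.00599). Cnn1, a calponin, was not detected in DAPP during DSS and was at least 2.44-fold lower (adjusted p = 0.00952). Under equal medians the list median was -0.49 and 2 members were called, Des no longer (adjusted p = 0.0566). Between 3 and 4 members were called without any of the 3 control arrays in turn or without DAPP during DSS replicate 2 or 3. Ckm, a creatine kinase of skeletal muscle, also fell by 1.42 ± 0.24 (adjusted p = 0.00433), and 4 of the 5 tested skeletal muscle markers were not called.

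The absorptive colonocyte list, whose mean level was 11.49 to 11.71 in control and 11.03 to 11.33 in DAPP during DSS, had 0 of 27 members called by limma (median -0.33, and 0.20 under equal medians). The 6 arrays alone called 4 members higher and 7 lower, and equal medians 2 higher. Aqp8, a water channel of surface colonocytes, lay at 12.60, 12.82 and 12.78 in control and at 11.14, 10.08 and 10.50 in DAPP during DSS, but its difference of -2.17 ± 0.74 did not pass the test (adjusted p = 0.115). Its DSS levels spread from 9.15 to 11.79. Goblet cell markers had a median of 0.11 with 0 of 16 called by limma (0.62 with 1 higher under equal medians, and 2 lower in the 6 arrays alone). Muc2, the main mucin of the colon, lay at 14.77 to 14.80 in control and 14.97 ± 0.04 in DAPP during DSS (SD, n = 3), close to the upper end of the scale. The labelled tissue thus showed bright colon epithelial markers in both groups.

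Ion and water transport had a median of -1.06, with 1 higher and 3 lower of 23 tested. The number lower was 15 in the 6 arrays alone, 9 without DAPP before DSS replicate 1, 2 under equal medians (median -0.55) and 1 without any 1 of the 6 arrays. The riser was Clca4b and the largest fall Slc37a2, both given above. Cftr, the chloride channel of crypt cells, lay at 11.42, 11.03 and 11.18 in control and at 9.64, 9.75 and 10.27 in DAPP during DSS (-1.32 ± 0.34, adjusted p = 0.039), and Atp12a, the colonic proton pump, fell by 2.34 ± 0.54 on the log2 scale (adjusted p = 0.0231). Both calls were lost whichever of the 6 arrays was left out (adjusted p 0.0565 to 0.147 for Cftr and 0.0524 to 0.102 for Atp12a), and that of Cftr under equal medians (adjusted p = 0.132). Of 22 genes of tight and adherens junctions 3 fell, with a median of -0.20 that was 0.19 under equal medians. Ocln, which encodes the junction protein occludin, lay at 8.78, 9.10 and 8.89 in control and at 7.59, 7.56 and 8.02 in DAPP during DSS (-1.20 ± 0.31, adjusted p = 0.0424). The Ocln call was lost whichever array was left out (adjusted p 0.0712 to 0.163) and under equal medians (adjusted p = 0.24), which left 0 of the list called. Of the others that fell, Cldn23 was lost whichever array was left out (adjusted p 0.0661 to 0.143). Mylk, which is also counted among the smooth muscle falls above, was lost without control replicate 2 or 3 or DAPP during DSS replicate 2 or 3 (adjusted p up to 0.0927). Tjp1 and Cldn2, a junction scaffold and a pore-forming claudin, differed by 0.06 ± 0.22 and -0.17 ± 0.57 and were not called.

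Detoxifying enzymes were lower: of 31 cytochrome P450 and phase II genes tested, 6 fell and 0 rose, with a median of -0.88 (-0.39 under equal medians, with 3 lower and 1 higher). Cyp2d12 lay at 10.83, 10.86 and 11.29 in control and at 8.15, 7.47 and 7.48 in DAPP during DSS (-3.29 ± 0.46, adjusted p = 0.00131). Cyp2f2, another P450 enzyme, fell from 9.14, 8.78 and 9.59 to 5.93, 5.78 and 5.72 (-3.36 ± 0.57, adjusted p = 0.00411). Ephx1, an epoxide hydrolase that is also an NRF2 target, fell from 9.56, 9.91 and 9.61 to 8.50, 7.80 and 8.22 (-1.52 ± 0.22, adjusted p = 0.00156). Leaving out any 1 of the 6 arrays left 3 of the list's members called, leaving out DAPP before DSS replicate 1 gave 14 lower, and the 6 arrays alone gave 18 lower.

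Most of the antioxidant genes, which the study's theme of polyphenols brings into question, were not called. Over all genes tested, 4.55% were called higher and 3.02% lower. Of 25 NRF2 antioxidant genes, 1 rose, 1 fell and 23 were not called, with a median of 0.03. Equal medians gave 5 higher and 1 lower with a median of 0.48, and the 6 arrays alone gave 3 higher and 4 lower. Hmox1, the heme-degrading oxygenase that NRF2 and heme induce, rose from 5.58, 4.94 and 4.95 (1 control array detected it) to 8.16, 8.33 and 7.09 (2.70 ± 0.40, adjusted p = 0.0018). Nqo1, a quinone reductase often used as a readout of NRF2, lay at 8.22, 8.32 and 7.96 in control and at 7.26, 7.56 and 7.38 in DAPP during DSS, a difference of -0.76 with an interval of -1.78 to 0.25 (adjusted p = 0.413). It was called lower in the 6 arrays alone (adjusted p = 0.0172), with array weights (adjusted p = 0.00828), without the DAPP before DSS arrays (adjusted p = 0.0146) and without replicate 1 of that group (adjusted p = 0.0101). Nfe2l2 itself differed by 0.10 (-1.03 to 1.23). Of 21 other antioxidant enzymes 3 rose, Gpx3, Mt1 and Mt2, and the 6 arrays alone gave 5 higher and 2 lower. Gpx3, an extracellular glutathione peroxidase, rose by 2.00 ± 0.35 (adjusted p = 0.00549). The metallothionein calls were each lost without 5 or more of the 6 arrays in turn, which left adjusted p up to 0.087 for Mt1 and 0.112 for Mt2. Sod2, Gpx1 and Cat, the mitochondrial superoxide dismutase, the main cellular glutathione peroxidase and catalase, differed by 0.39 (-0.13 to 0.91), 0.07 (-0.71 to 0.85) and -0.12 (-0.83 to 0.58) and were not called.

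Genes that make or shape reactive oxygen and nitric oxide rose in 6 of 15 tested (median 1.24). Arg1 and Arg2, arginases that compete with nitric oxide synthase for arginine, rose by 3.77 ± 0.58 and 2.52 ± 0.40. Xdh, the xanthine oxidoreductase, rose by 1.68 ± 0.28 (adjusted p = 0.00409). Nos2, the inducible nitric oxide synthase, was not detected in control and lay at 5.95, 7.67 and 6.85 in DAPP during DSS, with the test just missed (adjusted p = 0.0696). Of the prostaglandin and leukotriene genes 2 of 12 rose. Ptges, which makes prostaglandin E2, rose by 1.49 ± 0.29 (adjusted p = 0.00915).

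Mitochondrial lists lay slightly below the median of all genes under common quantiles and held few calls. Of 37 oxidative phosphorylation genes 0 were called by limma (median -0.16, and 0.37 under equal medians). Of 26 genes of mitochondrial biogenesis and the citrate cycle 1 was called, Idh3a, with a list median of -0.31 (0.15 under equal medians), and 5 members were positive. The list mean was 10.33 to 10.43 in control and 9.97 to 10.11 in DAPP during DSS. The Idh3a call (-1.25 ± 0.27, adjusted p = 0.0158) was lost without control replicate 1 or 3 or DAPP during DSS replicate 1 or 3 (adjusted p up to 0.072) and under equal medians (adjusted p = 0.15), which left 0 of the list called. The 6 arrays alone called 1 member higher and 4 lower. Ppargc1a, the coactivator that drives mitochondrial biogenesis, lay at 10.39, 10.02 and 10.33 in control and at 8.38, 7.67 and 8.06 in DAPP during DSS. Its groups did not overlap, as in 42.3% of all genes, and its difference of -2.21 ± 0.67 did not pass the test (adjusted p = 0.0762), while the fit of the 6 arrays alone did call it. Tfam, a factor that maintains mitochondrial DNA, differed by -0.16 ± 0.24. Among PPAR targets Angptl4, an inhibitor of lipoprotein lipase, rose from 7.70, 6.65 and 6.90 to 10.11 ± 0.15 (SD, n = 3; 3.03 ± 0.44, adjusted p = 0.00173), and the list of 22 genes had a median of -0.29 (0.14 under equal medians), with 1 lower, or 6 lower in the 6 arrays alone.

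Markers of the exocrine pancreas, which lies near the colon, varied from array to array. Their mean level over 17 genes was 8.54, 6.93 and 6.86 in control, 9.14, 6.64 and 14.27 in DAPP during DSS and 6.94, 13.36 and 13.98 in DSS. Try4, a trypsin, lay at 8.41, 4.84 and 14.41 in DAPP during DSS, so replicate 3 carried almost all of that signal. Their median difference from control was 3.14 with 0 of 17 called by limma, and it was 0.67 without DAPP during DSS replicate 3 and 5.20 without replicate 2. With the pancreas mean of each array as a covariate 715 genes were called, 672 of them among the 845. Replicate 1 of DAPP during DSS stood apart in other lists, with a cell cycle mean of 8.18 beside 9.03 and 9.18 (8.63 to 8.92 in control) and Hbb-bt, an adult beta globin, at 13.78 beside 11.95 and 12.04.

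**Figure D4:**
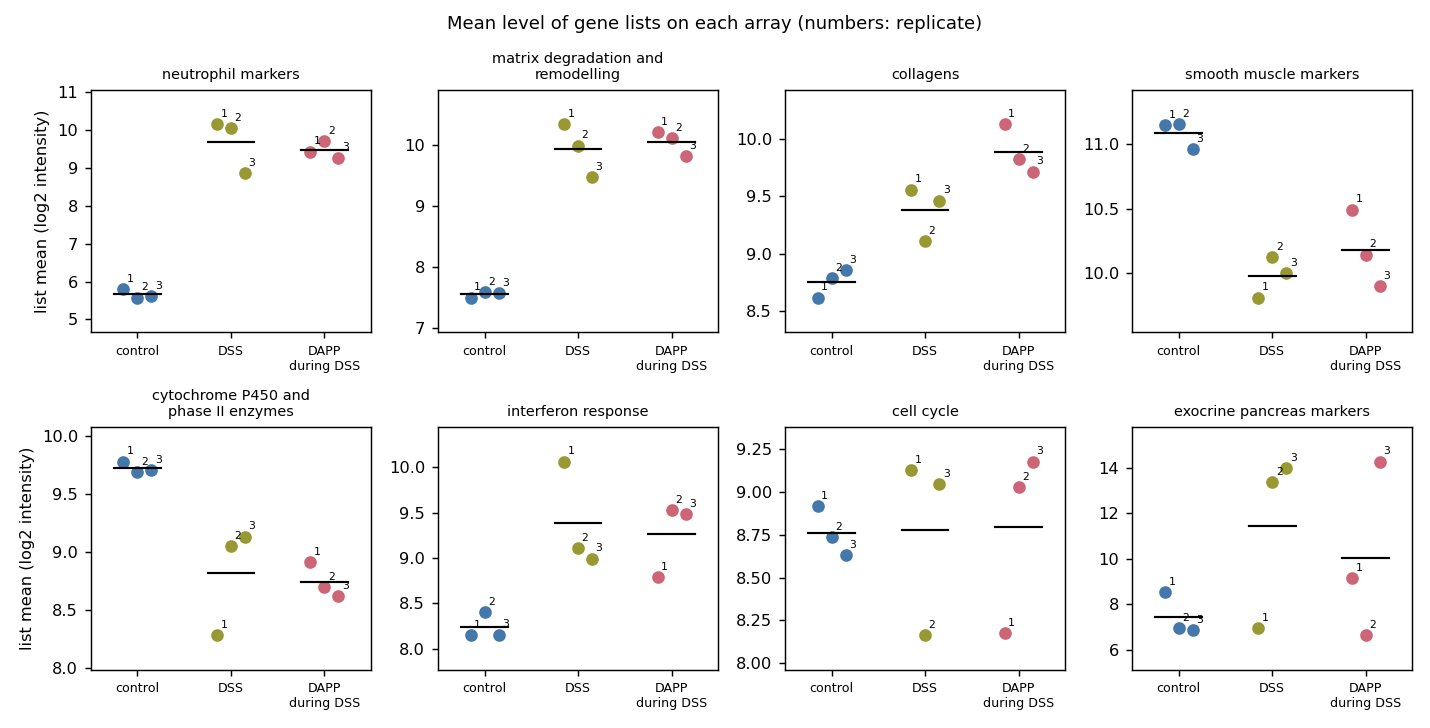
Each point is the mean log2 intensity of a gene list on 1 array, numbered by replicate, for control (blue), DSS (olive) and DAPP during DSS (red), with the group mean as a bar. Neutrophil, matrix and collagen means lie above control on all 3 DAPP during DSS arrays and smooth muscle and P450 means below, whereas cell cycle and pancreas means split within groups.

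The mice given DSS alone show how far these levels are those of DSS colitis without DAPP. No gene was called between DAPP during DSS and DSS (0 of 11156, 0% in limma), with 267 genes at an unadjusted p under 0.05 and 0 called in every alternative that could be run. Raw signals of these groups did not overlap either (433 to 487 in DSS, 701 to 708 in DAPP during DSS), and the part of this difference was not tested. Under equal medians the median difference from DSS was 0.38, and 1733 genes had an unadjusted p under 0.05. DSS against control gave 725 calls (6.5%). That comparison shares its control arrays with the one described here, so a likeness of the calls between them is partly built in. Of the 247 genes called in DAPP during DSS and not in DSS, 0 were called between DAPP during DSS and DSS. The intervals show what the 3 arrays a group could resolve. Il1b differed from DSS by -0.09 (-0.92 to 0.73), S100a9 by -0.01 (-0.93 to 0.91), Lcn2 by -0.17 (-1.08 to 0.74) and Mmp3 by 0.27 (-0.65 to 1.19), whose limits reach a change of 2-fold for Lcn2 and Mmp3 and stay within it for Il1b and S100a9. Wider limits held for Il6 (-0.49, -1.83 to 0.85), Cxcl1 (-0.75, -1.93 to 0.43) and Reg3b (0.48, -0.66 to 1.62).

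The list medians of DAPP during DSS minus DSS were close to 0 for most lists, at -0.24 for neutrophil markers, -0.09 for cytokines, 0.17 for smooth muscle, -0.09 for NRF2 antioxidant genes and -0.02 for P450 and phase II enzymes, beside 0.01 over all genes. The cell type lists furthest from 0 were exocrine pancreas at -1.57, mast cell and eosinophil at 0.50, fibroblast at 0.36 and B and plasma cell at -0.35. Collagens had the highest of the pathway medians at 0.45. Col3a1 and Col1a2 were higher than in DSS by 0.88 (0.37 to 1.39) and 0.83 (0.24 to 1.42) in limits that do not account for the number of genes, and neither passed the adjusted test (adjusted p = 1). Of the 137 named genes, the others whose limits left out 0 were Mptx1 at -2.01 (-3.87 to -0.15), the cytokine gene Il1a at -0.77 (-1.47 to -0.07) and Tjp1 at 0.55 (0.06 to 1.03), and none of these passed the adjusted test either (adjusted p = 1).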

How the data were processed

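The authors deposited, per the file headers, a signal intensity on a linear scale and a detection p-value for each probe and array, unnormalised; per the submitters' processing notes GenomeStudio was used, with settings the sources used here do not give. The authors' processed intensity values served as an alternative. In all, 1949 blank lines were left out and 0 signal columns were unused. Intensities were background-corrected, given an offset of 16, quantile-normalised and logged with limma's neqc (R 4.3.3, limma 3.58.1). A model with 4 groups was fitted to all 12 arrays with lmFit and eBayes (8 residual and 3.96 prior degrees of freedom), with Benjamini-Hochberg adjustment over all kept probes. Counts given as called by limma are from this fit, and the alternatives ran limma as well, with other arrays or settings. The number of arrays limits the precision. Of the 45281 probes, 34885 had 1 symbol in the platform table, 18 several and 10378 none, and 34807 symbols were updated to the gene table of GRCm38.p6. Another kept probe existed for 302 called genes, with the opposite sign for 23. For a gene that no array of the dimmer group detected, "at least" folds set the brighter mean against the higher of the lowest detected signal (5.18 to 5.70) and its own. Such bounds rest on the background-corrected scale: without that correction the log2 difference of Il11 was 4.21, beside a bound of 5.84. Named genes are the 12 largest called rises and falls, the leading genes of each list and a fixed set. The members, lists and rule were chosen with earlier results of these data known. The labels give replicate numbers and name no pairing, and the fit did not pair the samples. Deviations from the group means correlated at -0.14, 0.02 and -0.07 between control and DAPP during DSS arrays of the same number. So few values cannot settle whether the samples were paired. The fit was also run for this comparison on simulated data of 20556 probes. Their noise was independent and held no array effects, so no conclusion about these arrays is drawn from that run.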

Additional observations from a re-analysis of the deposited data

How the results depend on the processing

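The 845 calls against control became 2221 in the 6 arrays alone, 3184 with array weights, 1615 under equal medians (1457 higher, 158 lower), 513 with a detection p under 0.01 on all 6 arrays, and 1625 without the DAPP before DSS arrays, a setting chosen after seeing the data. Leaving out 1 array gave 392 to 1651: 457, 465 and 454 without control replicates 1, 2 and 3, 522, 392 and 477 without those of DAPP during DSS, and 1651 without DAPP before DSS replicate 1. The share of calls that were higher was 60.1%, 50.4% in the 6 arrays, 47.4% with array weights and 49.3% without background correction or with the authors' values. With a replicate block, 768 genes were called, 714 of them shared. Whether the replicate numbers pair the samples was not settled. Of 116 called named genes, 79 kept their call in every alternative that gave a value and 81 whichever of the 6 arrays was left out. Lyz1 reversed with the mean of all its kept probes (-1.11, adjusted p = 0.188), its other 2 probes differing by -2.35 and -1.95. Signals near background limit dim genes.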

Other observations

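Several further lists held few changed genes, and over all genes tested 7.57% were called. Of 18 glucocorticoid and FoxO responsive genes, 1 rose (Hsd11b1), 2 fell (Cyp11a1 and Foxo3) and 15 were not called. The Foxo3 call (adjusted p = 0.0485) was lost whichever of the 6 arrays was left out (adjusted p 0.0587 to 0.176). Hsd11b1, the enzyme that regenerates active glucocorticoid, rose from 8.33, 8.73 and 8.81 in control to 10.72, 11.07 and 10.58 in DAPP during DSS (2.16 ± 0.25, adjusted p = 0.00029). Cyp11a1, which starts steroid synthesis from cholesterol, lay at 7.79, 6.82 and 7.66 in control and was not detected in DAPP during DSS, at least 4.72-fold lower (adjusted p = 4.6e-05). It was not detected in DSS either. Dbp, an output gene of the circadian clock, fell from 12.22, 12.14 and 12.41 to 10.94, 9.99 and 9.87 (-1.99 ± 0.36, adjusted p = 0.00596), and the other 13 tested clock genes were not called.

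Among BMP pathway genes 4 of 16 rose, the ligand Bmp7 (1.73 ± 0.32, adjusted p = 0.00699) and the antagonists Grem1, Chrd and Fst, of which Chrd and Fst lost their calls when most single arrays were left out (adjusted p up to 0.114 and 0.118). Epgn, a ligand of the EGF receptor, had no detected signal in control and rose at least 4.89-fold (adjusted p = 0.00207). Cck, a hormone of enteroendocrine cells, rose by 1.98 ± 0.29 (adjusted p = 0.00186), and 11 of the 12 tested enteroendocrine markers were not called. Of 27 cell cycle genes, 18 of cholesterol synthesis and 14 ribosomal proteins, limma called 0, with medians of 0.01, -0.06 and -0.14. Under equal medians these were 0.45, 0.42 and 0.41, with 1 cholesterol gene and 4 ribosomal proteins called higher, and the 6 arrays alone called 2 cell cycle genes lower. Of the called probes, 160 carried no single symbol and are not named.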
